A study of Mus musculus with 9 samples.

Results

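The spindle checkpoint and the start of anaphase were followed through 10 genes, chosen by name: the activators Cdc20 and Fzr1, the kinases and pseudokinase Bub1, Ttk and Bub1b, the binding proteins Bub3, Mad2l1 and Mad1l1, and the securin and separase genes Pttg1 and Espl1. Each matched a single row among the 54532 genes listed, and all 10 were among the 11727 genes that were expressed well enough to be tested. The cells were labelled B.END3, an established line of mouse brain endothelial cells, and C57BL/6, and were exposed to photodynamic therapy (PDT), in which a photosensitizer generates reactive oxygen species under light. RNA sequencing covered 9 libraries in 3 groups of 3. Ctrl cells were labelled untreated, while both PDT groups were incubated for 90 min with 300 µg/mL of the photosensitizer porfimer sodium and exposed to a 635 nm laser at 100 mW/cm2, with a light dose of 10 J/cm2 in Ep1 and of 20 J/cm2 in Ep2. Ep1 and Ep2 therefore differed from each other in light dose, and both differed from Ctrl in drug and light together. No library of drug alone or light alone was analysed here, and the time between light and lysis of these cells is not given in the sources used here.

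The spindle checkpoint delays the separation of sister chromatids until every chromosome is attached to the spindle. At an unattached kinetochore, the kinases TTK and BUB1 and the MAD1 protein promote the conversion of MAD2, which binds CDC20 together with BUBR1 (from Bub1b) and BUB3 in the mitotic checkpoint complex and holds back the anaphase-promoting complex (APC/C), the ubiquitin ligase that CDC20 activates. Once the checkpoint is satisfied, APC/C with CDC20 marks securin and cyclin B for destruction, separase is released and cuts cohesin, and APC/C with CDH1 (from Fzr1) takes over toward mitotic exit. Many of these genes are transcribed mainly in G2 and mitosis, and their RNA is therefore commonly used as a sign of dividing cells.

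The libraries held between 16240688 and 19509225 fragments on genes, as recovered from the FPKM values (fragments scaled to the length of a gene and to the size of a library), with between 19935 and 20981 genes detected. The share of fragments on mitochondrial genes lay between 1.90% and 1.99% in Ctrl, 2.0% and 2.08% in Ep1, and 2.04% and 2.49% in Ep2. It was higher in every PDT library than in every Ctrl library, and its part in the results was not tested. The organism label is mouse, while the growth notes call the cells rat, and most markers that define endothelial cells were low or absent: 2 of 12 (Flt1 and Eng) reached an FPKM of 1 in at least 3 libraries, Pecam1, Cdh5 and Kdr stayed at or below 1.09, and Emcn and Erg were listed at 0 throughout. Their summed FPKM ranged from 9.45 to 9.67 in Ctrl, from 9.43 to 10.8 in Ep1, and from 13.0 to 14.1 in Ep2, mostly from Flt1. Of the epithelial markers, 4 of 5 reached that level, with a summed FPKM of 1029 to 1081 in Ctrl, 937 to 1041 in Ep1, and 1155 to 1372 in Ep2, led by the keratin gene Krt8 at 640 ± 15.9 FPKM in Ctrl. Besides the keratin genes Krt8, Krt18 and Krt19, Epcam reached it through Ep2 (1.59 to 2.03 FPKM), with at most 0.898 in Ctrl and 1.06 in Ep1. Cdh1 stayed at or below 0.103 FPKM in every library. Among the other lists, 1 of 5 fibroblast markers (Col1a1), 1 of 4 neuronal markers (Tubb3), and none of 6 mural, 4 astrocyte and 5 leukocyte markers reached an FPKM of 1 in at least 3 libraries. The most abundant of the last 3 lists in Ctrl were Pdgfrb at 0.223, Aldh1l1 at 0.0964 and Csf1r at 0.136 FPKM. Summed over each list, fibroblast markers stayed between 6.27 and 8.35 FPKM over all libraries, neuronal markers between 1.65 and 2.70, mural markers between 0.429 and 1.0, astrocyte markers between 0.0791 and 0.242, and leukocyte markers between 0.0997 and 0.275, so the epithelial and endothelial lists are those whose Ep2 libraries lay above all Ctrl libraries. These levels go against the endothelial label, so the identity of the line is in doubt, and their part in the results was not tested.

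The upstream sequences of 3 genes are shown because they belong to the 3 genes that fell most in Ep2 and hold the letters of both motifs that are best known in promoters of genes transcribed in G2 and mitosis. All 10 genes matched a promoter in RefSeq (GRCm38.p6), and the 250 bases before the start were searched on both strands for the cell cycle homology region (CHR, TTTGAA or TTCGAA), for the CCAAT box (CCAAT), and for the E2F-type letters TTTCCCGC, TTTGGCGC, TTTCGCGC and TTTGCCGC. The stretches below are written 5′ to 3′ on the strand of the gene, with the matches in capitals, TTTGAA or TTCGAA for the CHR and CCAAT or its reverse complement ATTGG for the CCAAT box.
Cdc20 (chr4:118437356-118437443, minus strand, bases -100 to -13 from the start): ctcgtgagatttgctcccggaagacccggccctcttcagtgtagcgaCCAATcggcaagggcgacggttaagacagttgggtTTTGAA
Espl1 (chr15:102296193-102296280, plus strand, bases -100 to -13): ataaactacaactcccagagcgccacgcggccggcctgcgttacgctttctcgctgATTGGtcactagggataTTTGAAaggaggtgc
Bub1b (chr2:118598011-118598111, plus strand, bases -200 to -100): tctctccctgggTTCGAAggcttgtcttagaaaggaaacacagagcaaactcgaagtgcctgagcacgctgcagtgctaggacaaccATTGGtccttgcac

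Positions are counted from the RefSeq start, and the 10 genes had 12 windows there. For Espl1, Bub3, Fzr1, Pttg1, Cdc20 and Bub1 this start lies inside the listed gene. The same holds for the start that belongs to the Mad1l1 window at chr5:140174919-140175168. The CHR match of Espl1, all matches of Bub3 and the CCAAT match of Fzr1 therefore fall within the listed gene. So does the CCAAT match of Cdc20 that lies nearest to its start. CHR letters were present upstream of the RefSeq start of 4 of the 10 genes (Cdc20, Espl1, Bub1b and Bub3), and in 17.2% of all 32851 promoter windows. CCAAT letters were present in 7 of the 10, namely those 4 and Fzr1, Bub1 and Ttk, and in 33.9% of all windows, while both motifs together occurred in 6.02% of all windows. The E2F-type letters were found in 0 of the 10 and in 1.86% of all windows. The CHR match began 18 bases before the start of Cdc20 and 27 bases before that of Espl1, with a CCAAT match farther upstream in each, and none of the matches overlapped. Cdc20 held another CCAAT match between its CHR match and the start. Mad2l1, Mad1l1 and Pttg1 held none of the 3 motifs in this window. The Pttg1 window (chr11:43425982-43426231) lies wholly inside the listed gene, so the bases before the listed start of Pttg1 were not searched. These matches describe letters in a fixed window, were not tested, and show no binding.

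After the higher light dose, the RNA of nearly all checkpoint and anaphase genes fell, and that of securin was the exception. In Ep2 against Ctrl, 9 of 10 genes were lower at an adjusted p below 0.05 (limma, Benjamini-Hochberg over all tested genes), and 0 were higher, against 29.3% lower and 23.9% higher among all tested genes. Over all genes this split depended on scaling, with 2800 higher and 3436 lower, but 3311 higher and 2971 lower with median centring and 3547 higher and 3485 lower with voom, while 9 of the 10 genes were lower under each. For the same 9 genes every Ep2 library lay below every Ctrl library, which held for 32.7% of all tested genes. With the additional minimum of 0.6 for the fall on the log2 scale, 5 of the 10 remained (Cdc20, Fzr1, Ttk, Bub1b and Espl1), against 5.87% of all tested genes. The median log2 fold change of (FPKM + 1) was -0.63 for the 10 genes and -0.03 for all tested genes. In bulk RNA, fewer cells in mitosis and less of these transcripts per dividing cell cannot be told apart.

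**Figure D1:**
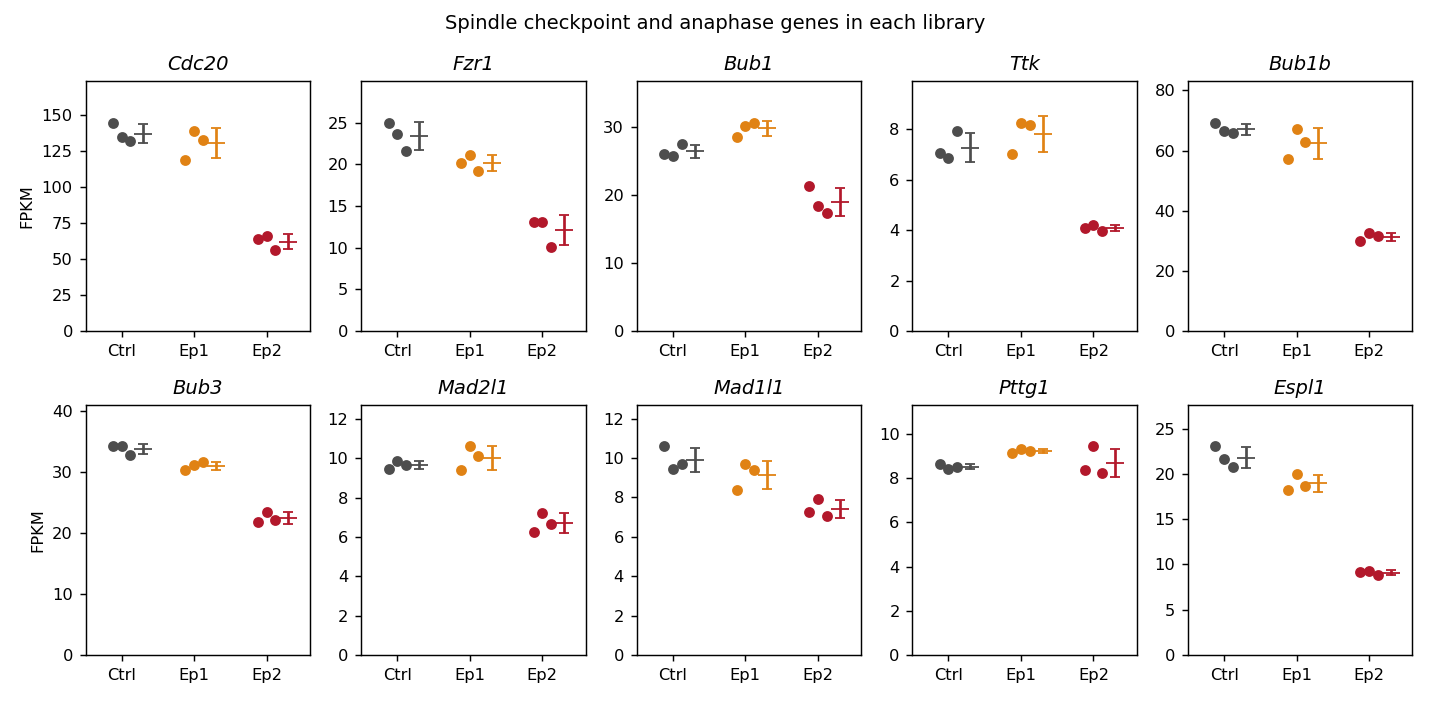
FPKM of each of the 10 genes (vertical axis, from 0) in the 3 libraries of Ctrl, Ep1 and Ep2, with each point a library and the bar beside the points the mean ± SD. In 9 panels the Ep2 points sit below all Ctrl and Ep1 points, for example at 56.7 to 66.2 FPKM against 132 to 145 in Ctrl for Cdc20, while in the Pttg1 panel they overlap with both.

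Cdc20 (ENSMUSG00000006398, chr4:118432901-118437352 on GRCm38, minus strand) encodes the activator that APC/C needs to start anaphase and is the direct target of the checkpoint. It was the most abundant of the 10 genes, at 145, 135 and 132 FPKM in Ctrl, 119, 139 and 133 in Ep1, and 64.1, 66.2 and 56.7 in Ep2. The Ep1 libraries overlapped with Ctrl, whereas all Ep2 libraries were far below both. The fall in Ep2 against Ctrl was -1.13 ± 0.07 (log2 fold change of FPKM + 1, SE; limma, adjusted p = 5.91e-06), which left 45.4% of the Ctrl mean. A stretch of 53 bases of the gene is shared with Elovl1 on the opposite strand, and the counting is not stated to use strand, so reads from there cannot be assigned with certainty.

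Fzr1 (ENSMUSG00000020235, chr10:81366222-81378516, minus strand) encodes CDH1, the activator that keeps APC/C running from late mitosis into G1. Its levels were 24.98, 23.7 and 21.6 FPKM in Ctrl, 20.1, 21.1 and 19.2 in Ep1, and 13.1, 13.1 and 10.1 in Ep2. The groups formed 3 separate steps, with the smallest gap between the lowest Ctrl library and the highest Ep1 library. Ep2 was lower than Ctrl, with a log2 fold change of -0.90 ± 0.10 (limma, adjusted p = 6.11e-05), while the step from Ctrl to Ep1 of -0.21 did not pass (limma, adjusted p = 0.186). Both activators thus fell at the higher dose, although CDC20 acts before and CDH1 after anaphase onset.

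All 3 genes of the kinase group fell in Ep2, with log2 fold changes between -1.07 and -0.46. Bub1b (ENSMUSG00000040084, chr2:118598211-118641591, plus strand) encodes BUBR1, a pseudokinase that blocks CDC20 within the mitotic checkpoint complex. It was listed at 69.3, 66.4 and 65.9 FPKM in Ctrl, 57.2, 67.2 and 62.8 in Ep1, and 29.9, 32.7 and 31.6 in Ep2. Ep1 reached into the Ctrl range with a single library, while all Ep2 libraries were far below both. The change in Ep2 against Ctrl was -1.07 ± 0.06 (limma, adjusted p = 3.36e-06), close in size to that of Cdc20.

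Ttk (ENSMUSG00000038379, chr9:83834689-83872389, plus strand) encodes MPS1, the kinase at the top of the checkpoint. With 7.07, 6.85 and 7.93 FPKM in Ctrl, 7.01, 8.27 and 8.18 in Ep1, and 4.08, 4.205 and 3.99 in Ep2, it was the lowest of the 10 genes in every group by mean. Ctrl and Ep1 overlapped, and the Ep2 libraries lay close together well below them. The log2 fold change in Ep2 against Ctrl was -0.70 ± 0.07 (limma, adjusted p = 5.05e-05).

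Bub1 (ENSMUSG00000027379, chr2:127801122-127831865, minus strand) encodes a kinase that recruits other checkpoint proteins to the kinetochore and marks centromeric chromatin. It read 26.0, 25.7 and 27.5 FPKM in Ctrl, 28.5, 30.2 and 30.6 in Ep1, and 21.3, 18.3 and 17.4 in Ep2. Here all Ep1 libraries were above and all Ep2 libraries were below the Ctrl libraries. The Ep2 change of -0.46 ± 0.07 passed (limma, adjusted p = 0.0005), while the Ep1 difference of 0.17 did not (limma, adjusted p = 0.143), and it passed in a fit of Ctrl and Ep1 alone (adjusted p = 0.0360).

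All 3 binding proteins of the checkpoint fell in Ep2, with log2 fold changes between -0.57 and -0.38. Bub3 (ENSMUSG00000066979, chr7:131560222-131571895, plus strand) encodes the adaptor that brings BUB1 and BUBR1 to kinetochores. Its FPKM was 34.1, 34.1 and 32.8 in Ctrl, 30.3, 31.1 and 31.6 in Ep1, and 21.7, 23.5 and 22.0 in Ep2. The 3 groups did not overlap, and Ep1 lay only slightly below Ctrl. The log2 fold change was -0.57 ± 0.04 in Ep2 against Ctrl (limma, adjusted p = 1.03e-05) and -0.12 ± 0.04 in Ep1 against Ctrl (limma, adjusted p = 0.104).

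Mad2l1 (ENSMUSG00000029910, chr6:66535390-66547220, plus strand) encodes MAD2, the protein that binds CDC20 once converted at the kinetochore. Its values were 9.46, 9.88 and 9.64 FPKM in Ctrl, 9.39, 10.6 and 10.1 in Ep1, and 6.25, 7.23 and 6.65 in Ep2, so that Ep2 alone stood apart. Mad1l1 (ENSMUSG00000029554, chr5:140008689-140321552, minus strand) encodes MAD1, which anchors MAD2 at unattached kinetochores, and gave 10.6, 9.44 and 9.70 FPKM in Ctrl, 8.36, 9.69 and 9.39 in Ep1, and 7.27, 7.91 and 7.05 in Ep2. Mad2l1 changed by -0.47 ± 0.06 (limma, adjusted p = 0.000194) and Mad1l1 by -0.38 ± 0.07 (limma, adjusted p = 0.00134) in Ep2 against Ctrl. Mad1l1 was the gene with the smallest fall among the 9 that passed, and its Ep2 libraries still lay below all others. Processed pseudogenes resemble stretches of Bub3, Cdc20 and Mad2l1 at 92.1% to 95.4% identity, and those listed here were at 0 FPKM in every library.

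Separase had the largest fall of the 10 genes, and its inhibitor securin was the gene that did not pass. Espl1 (ENSMUSG00000058290, chr15:102296266-102324357, plus strand) encodes separase, the protease that cuts cohesin at anaphase onset. It was at 23.0, 21.6 and 20.8 FPKM in Ctrl, 18.3, 20.0 and 18.6 in Ep1, and 9.11, 9.30 and 8.79 in Ep2, in 3 steps without overlap. Its change in Ep2 against Ctrl, -1.18 ± 0.05 (limma, adjusted p = 1.84e-06), left 41.6% of the Ctrl mean.

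Pttg1 (ENSMUSG00000020415, chr11:43420250-43426251, minus strand) encodes securin, which keeps separase inactive and is destroyed through APC/C and CDC20. Its levels were 8.63, 8.41 and 8.48 FPKM in Ctrl, 9.13, 9.33 and 9.24 in Ep1, and 8.37, 9.43 and 8.25 in Ep2. The Ep2 libraries spread over the ranges of both other groups, with Ep2 replicate 2 as the highest of all 9 libraries. The difference between Ep2 and Ctrl was 0.02, with a 95% confidence interval from -0.10 to 0.14 (limma, adjusted p = 0.725), so a fall as large as that of any of the other 9 genes lies outside the interval. Between 274 and 353 fragments stood behind each Pttg1 value, the fewest of the 10 genes, which by counting error alone gives a spread of 5.32% to 6.04% per library.

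**Figure D2:**
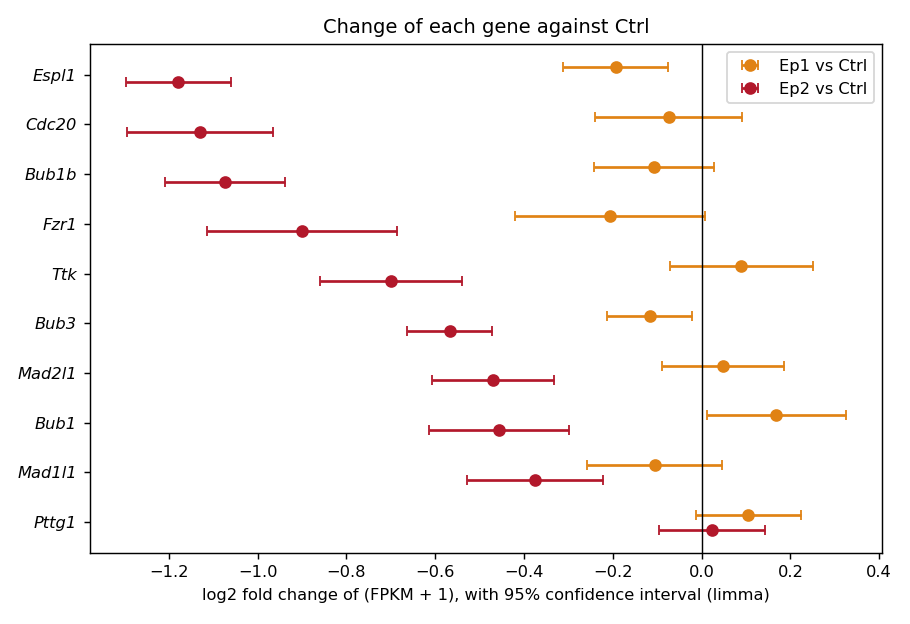
Log2 fold change of (FPKM + 1) of each gene (horizontal axis) in Ep1 against Ctrl and in Ep2 against Ctrl, which share the Ctrl libraries, with bars for the 95% confidence interval from limma and genes ordered by their change in Ep2. The Ep2 points run from -1.18 for Espl1 to 0.02 for Pttg1, while all Ep1 points lie between -0.21 and 0.17.

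At the lower light dose, a single gene passed the threshold, in a comparison that shares its Ctrl libraries with that of Ep2. In Ep1 against Ctrl, Espl1 alone of the 10 genes was lower, with a log2 fold change of -0.19 ± 0.05 (limma, adjusted p = 0.0462), against 4.97% lower and 6.32% higher among all tested genes, and 3 of the 10 had an unadjusted p below 0.05 (Espl1, Bub3 and Bub1). The counts over all genes, 741 higher and 583 lower, moved with single libraries, to 115 higher and 77 lower without Ctrl replicate 2, 117 and 82 without Ep1 replicate 3, 218 and 161 without Ep1 replicate 1, 237 and 155 without Ctrl replicate 1, 462 and 382 without Ep1 replicate 2, and 1185 and 1007 without Ep2 replicate 1, which enters through the shared spread. Fzr1, Bub3 and Espl1 lay below Ctrl in every Ep1 library, which held for 20.5% of all tested genes, and Bub1 and Pttg1 lay above Ctrl in every Ep1 library, which held for 20.8%. Pttg1 differed by 0.11 ± 0.05 in this comparison (limma, adjusted p = 0.217). None of the 10 changed by 0.6 or more on the log2 scale. The Espl1 call was lost, at adjusted p-values from 0.135 to 0.146, when Ctrl replicate 1, Ctrl replicate 2, Ep1 replicate 1 or Ep1 replicate 3 was left out, and also with no filter on low values (limma, adjusted p = 0.119).

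The light doses were compared directly, with drug and wavelength the same and with the Ep2 libraries shared with the comparison against Ctrl. In Ep2 against Ep1, 9 of 10 genes were lower (limma, adjusted p below 0.05), against 25.2% lower and 18.8% higher among all tested genes, and these 9 were below Ep1 in every Ep2 library, against 30.3% of all tested genes. With median centring of the libraries the split over all genes turned from 2206 higher and 2950 lower to 2974 higher and 2383 lower, and 9 of the 10 genes were still lower. A fall by more than 0.6 was measured for 6 genes (Cdc20, Fzr1, Bub1, Ttk, Bub1b and Espl1), against 3.97% of all tested genes. The largest was that of Cdc20 at -1.06 ± 0.07 (limma, adjusted p = 1.19e-05), and the smallest of the 9 that of Mad1l1 at -0.27 ± 0.07 (limma, adjusted p = 0.0103). Bub1, which was highest in Ep1, had a log2 fold change of -0.62 ± 0.07 (limma, adjusted p = 0.000131). For Pttg1 the difference was -0.08 ± 0.05 (limma, adjusted p = 0.242), and without Ep2 replicate 2 it was -0.14 (limma, adjusted p = 0.0470).

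The order of the levels, which are per gene length, stayed much the same. In Ctrl, Cdc20 was followed by Bub1b at 67.2 ± 1.83 FPKM (SD, n = 3), Bub3 at 33.7 ± 0.766, Bub1 at 26.4 ± 1.01, Fzr1 at 23.4 ± 1.73, Espl1 at 21.8 ± 1.146, Mad1l1 at 9.91 ± 0.602, Mad2l1 at 9.66 ± 0.208, Pttg1 at 8.51 ± 0.115, and Ttk at 7.28 ± 0.568. The libraries of Fzr1 and Espl1 overlapped, as did those of Mad1l1 and Mad2l1, while all other neighbours were separate. In Ep2, Pttg1 at 8.68 ± 0.652 FPKM stood above Mad1l1 at 7.41 ± 0.447 and Mad2l1 at 6.71 ± 0.494, and overlapped with Espl1 at 9.07 ± 0.257. The FPKM values rest on the gene lengths listed beside them, such as 8390 bases for Mad2l1 and 7006 for Bub3, so levels of different genes depend on them while ratios between groups do not.

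Because several of these proteins act in pairs, the ratio of partner genes was taken within each library. Pttg1 over Espl1 was 0.375, 0.389 and 0.409 in Ctrl, 0.4999, 0.467 and 0.496 in Ep1, and 0.918, 1.01 and 0.939 in Ep2. The RNA of securin and separase thus went from well apart to nearly equal FPKM, with no overlap between the 3 groups. The mean ratio in Ep2 was 2.45-fold that in Ctrl (geometric mean; exact permutation test, two-sided, p = 0.1, adjusted p = 0.125 over 15 tests), where 0.1 is the smallest p that this permutation test can give with 3 against 3 libraries, so that test cannot pass the threshold. The difference was 1.29 ± 0.06 on the log2 scale (SE).

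Bub1b over Bub3, partners in the checkpoint complex, was 2.03, 1.95 and 2.01 in Ctrl, 1.89, 2.16 and 1.99 in Ep1, and 1.38, 1.39 and 1.43 in Ep2. Ctrl and Ep1 overlapped and Ep2 lay below both. Cdc20 over its inhibitor Mad2l1 was 15.3, 13.7 and 13.7 in Ctrl, 12.7, 13.1 and 13.2 in Ep1, and 10.3, 9.15 and 8.52 in Ep2, in 3 separate steps. Both ratios were lower in Ep2 than in Ctrl, at 0.703-fold and 0.653-fold, each with the smallest possible p (exact permutation test, p = 0.1).

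The remaining pairs showed smaller differences in Ep2 against Ctrl, at 0.879-fold and 0.927-fold. Cdc20 over Fzr1 averaged 5.88 ± 0.223 (SD, n = 3) in Ctrl, 6.49 ± 0.521 in Ep1, and 5.17 ± 0.382 at the higher dose, with Ep2 below Ctrl in all libraries. Mad2l1 over Mad1l1 averaged 0.978 ± 0.0774, 1.10 ± 0.0239 and 0.906 ± 0.0434 in the same groups, where Ep2 and Ctrl overlapped (exact permutation test, p = 0.3).

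**Figure D3:**
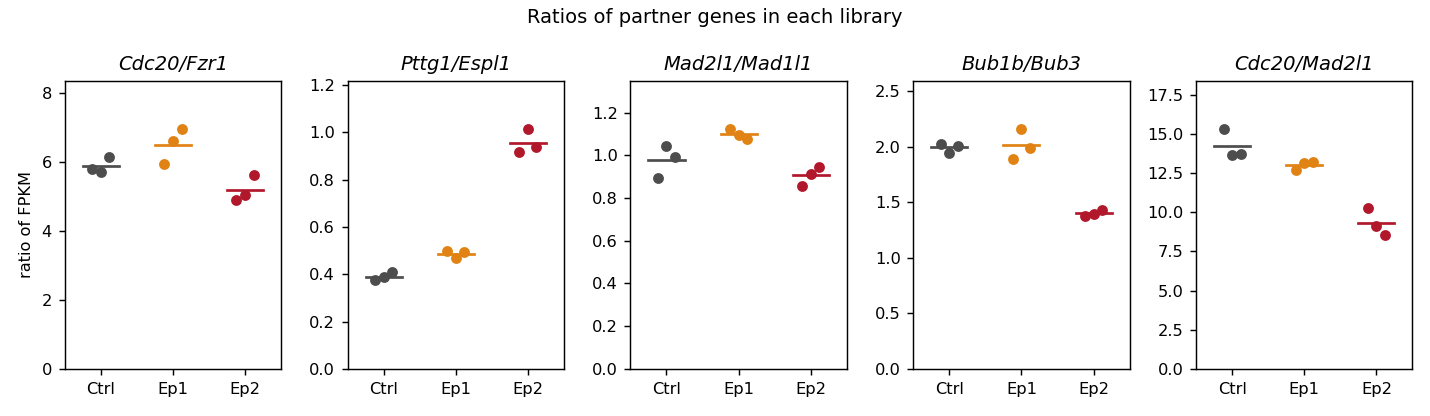
Ratio of the FPKM of partner genes (vertical axis, from 0) in each library of Ctrl, Ep1 and Ep2, with points for libraries and a line for the mean of 3. The Pttg1/Espl1 ratio climbs from a mean of 0.391 to 0.488 and 0.957, and the Bub1b/Bub3 ratio goes from 1.995 to 2.01 and then drops to 1.40.

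The genes around the checkpoint were read from 6 lists of related genes, with means ± SD of 3 libraries. For APC/C itself, the ligase that the checkpoint restrains, part of the genes fell: of 14 subunit genes, 7 were lower, 1 was higher, and 6 did not pass in Ep2 against Ctrl (limma, adjusted p below 0.05), with a median log2 fold change of -0.16. The shares over all tested genes, 29.3% lower and 23.9% higher with a median of -0.03, apply to each of the lists that follow. Anapc5, a scaffold subunit, went from 39.3 ± 0.751 to 27.1 ± 1.17 FPKM (log2 fold change -0.52 ± 0.04, limma, adjusted p = 1.41e-05). Cdc16, another core subunit, rose from 22.2 ± 1.12 to 27.3 ± 2.76 FPKM (0.28 ± 0.07, limma, adjusted p = 0.00728).

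Among the 4 genes of APC/C partner enzymes and of its inhibitor, 3 were lower and 1 was higher, with a median of -0.30. Fbxo5, which encodes the APC/C inhibitor EMI1, fell from 29.4 ± 1.90 to 16.4 ± 0.0776 FPKM (-0.81 ± 0.05, limma, adjusted p = 5.92e-06). Ube2d1, a general ubiquitin-conjugating enzyme, rose by 0.20 ± 0.07 (limma, adjusted p = 0.0427), a call that was lost with no filter, in a fit of the groups compared alone, and without any of 5 single libraries (Ctrl replicates 1, 2 and 3, and Ep2 replicates 2 and 3).

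Of 8 further checkpoint factors, 6 were lower, 0 were higher and 2 did not pass, with a median of -0.56. Trip13, the ATPase that takes the mitotic checkpoint complex apart, fell from 20.6 ± 1.09 to 10.6 ± 0.161 FPKM (-0.90 ± 0.05, limma, adjusted p = 3.35e-06). Of 6 genes of cohesin protection and release, 4 were lower and 1 was higher, with a median of -0.21. The count of lower genes was 3 with no filter, a filter of 5 FPKM, median centring, or a fit of the groups compared alone. It was also 3 when Ctrl replicate 1, 2 or 3 or Ep2 replicate 1 or 2 was left out. Cdca5, which encodes the cohesin protector sororin, fell from 19.1 ± 0.902 to 9.09 ± 0.309 FPKM (-0.996 ± 0.05, limma, adjusted p = 2.55e-06), whereas Wapl, which releases cohesin from chromatin and opposes sororin, rose from 21.4 ± 0.647 to 24.7 ± 1.29 FPKM (0.20 ± 0.05, limma, adjusted p = 0.00553).

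All 13 genes whose proteins are known APC/C substrates were lower in Ep2, with a median of -0.72 and a range from -1.14 to -0.36. Ccna2, the cyclin A2 gene, fell from 46.1 ± 1.05 to 22.2 ± 0.139 FPKM (-1.02 ± 0.05, limma, adjusted p = 2.71e-06). Securin is also an APC/C substrate, but its RNA did not pass. The 6 genes of the replicative MCM helicase, which acts in S phase and not in mitosis, were all lower too, with a median of -0.82, led by Mcm7 from 76.5 ± 2.48 to 36.1 ± 1.64 FPKM (-1.06 ± 0.05, limma, adjusted p = 1.84e-06). The decrease at the higher dose was thus measured in S phase genes as well as in mitotic genes.

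In Ep1 against Ctrl, 3 of the 51 genes of these lists passed, 2 higher and 1 lower (limma, adjusted p below 0.05), against 6.32% higher and 4.97% lower among all tested genes. Wapl was higher by 0.27 ± 0.05 (adjusted p = 0.0124), with Ep1 at 25.9 ± 0.621 FPKM, while Anapc13 at -0.36 and Mcm4 at 0.18 are named after their values were seen. Each of the 3 calls was lost without certain single libraries, namely Ctrl replicates 1 and 2 and Ep1 replicate 3 for Wapl, Ctrl replicate 2 for Anapc13, and all Ctrl replicates and Ep1 replicates 2 and 3 for Mcm4. The Mcm4 call was also lost with no filter on low values. In Ep2 against Ep1, the 51 genes gave 2 higher and 38 lower calls, against 18.8% higher and 25.2% lower among all tested genes, a split that turned with median centring as given above. All 13 substrates and all 6 helicase genes were lower.

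**Figure D4:**
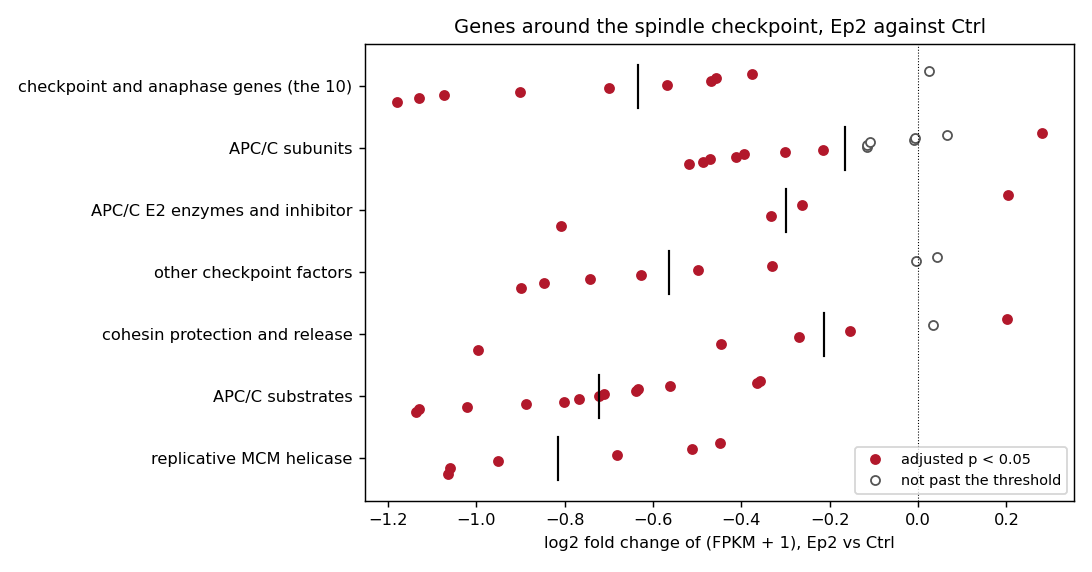
Log2 fold change of (FPKM + 1) in Ep2 against Ctrl (horizontal axis) for the 10 checkpoint and anaphase genes and for the genes of 6 related lists, with 1 point a gene, filled where the adjusted p was below 0.05 (limma), and a vertical line at the median of each list. The substrates and the MCM genes lie wholly to the left of 0, and the APC/C subunits cluster nearer to it with a median of -0.16.

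Over the 9 libraries, Pearson's correlation of log2(FPKM + 1) with Cdc20 described how closely other genes followed it. It was 0.992 for Bub1b, 0.991 for Espl1, 0.982 for Bub3, 0.970 for Fzr1, 0.969 for Ttk, 0.966 for Mad2l1, 0.939 for Mad1l1, 0.918 for Bub1, and 0.237 for Pttg1. Such values were common, as 37 tested genes outside the 10 had a higher correlation than Bub1b, 474 than Fzr1, 1334 than Bub1, and 5309 than Pttg1. The 5 tested genes outside the 10 that followed Cdc20 most closely were Acsl6, Pmf1, Ppm1g, Ska1 and Naa10, with correlations between 0.996 and 0.997. Acsl6, the closest, went from 4.37 ± 0.134 FPKM in Ctrl to 2.64 ± 0.127 in Ep2, Ppm1g from 53.4 ± 1.53 to 33.9 ± 0.709, and Naa10 from 5.57 ± 0.142 to 3.35 ± 0.232. Of the 5, Ska1 and Pmf1 are the kinetochore genes. Ska1 encodes a protein of the outer kinetochore and went from 6.37 ± 0.315 to 2.85 ± 0.216 FPKM in Ep2, and Pmf1 encodes a kinetochore subunit and went from 24.1 ± 1.78 to 11.98 ± 0.908. These correlations mostly reflect the step between Ep2 and the other groups, which all points share, and carry no test.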

How the data were processed

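Per the labels and methods, total RNA of B.END3 cells was sequenced as paired-end reads, and the authors deposited 1 FPKM value per gene and library. The submitters' processing notes name Bowtie 0.12.2 and mm8, and the methods name GRCm39, whereas 99.9% of 36418 listed gene positions overlapped those of GRCm38, which is used here. The single-library tables equalled the joint table. FPKM times gene length gave whole fragments (within 0.05) in every library, and thus the depth. Genes that reached 1 FPKM in 3 or more of the 9 libraries were tested as log2(FPKM + 1) in limma 3.58.1 (R 4.3.3), with a variance trend, robust estimation, all 3 groups in 1 model and no covariate, and Benjamini-Hochberg adjustment over the 11727 genes within each comparison. A fold change on this scale understates the change of low genes. The minimum of 0.6 for log2 fold changes is that of the study. Ratios of partners were compared with exact permutation tests (scipy 1.17.1). Groups follow the labels. Nothing states that replicates came from separate cultures, so p-values measure the spread between these libraries, which may be technical. Libraries of a group differed by more than counting noise (chi-square per degree of freedom from 2.81 to 15.2). This value was 5.00 to 15.2 in Ep2, 2.81 to 4.99 in Ctrl and 3.19 to 5.66 in Ep1, while the fit shares 1 spread. The fit was first checked on simulated data. The 10 genes, the lists and the motifs were chosen with earlier results of these data known. Named from each list were the genes with the smallest adjusted p in each direction in Ep2 against Ctrl, from the markers the most abundant gene and the defining ones that were absent, and with Cdc20 the 5 genes of highest correlation. Alternatives were a pseudocount of 0.1, no filter, a filter of 5 FPKM, median centring, a replicate block, voom on the recovered fragments, a fit of the groups compared alone, the minimum fold change, and the omission of each library. Sequences are from RefSeq, and figures were drawn with matplotlib 3.10.9.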

Additional observations from a re-analysis of the deposited data

How the results depend on the processing

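In Ep2 against Ctrl and in Ep2 against Ep1, the count of 9 lower genes was within 1.5 times of itself under every alternative tried for the same threshold (limma), and with the minimum fold change of 0.6 it was 5 in Ep2 against Ctrl. It was 9 in each omission of a library in Ep2 against Ctrl, and 9 to 10 in Ep2 against Ep1. In Ep1 against Ctrl, the count of 1 became 0 with no filter, 0 with the minimum fold change, 2 in a fit of the groups compared alone, and 0 to 1 when single libraries were left out. With the replicate block it was 0 as well (Espl1 at an adjusted p of 0.0586, limma), and the block moved no other count of the 10 genes. Same-numbered libraries did not deviate together (correlations from -0.056 to 0.074), and not every library correlated best with its own number. No pairing by number was thus seen, which does not show whether same-numbered libraries were handled together. The difference of Pttg1 between Ep2 and Ctrl, which never passed, was 0.056 without Ep2 replicate 3 and -0.031 without Ep2 replicate 2, the extremes over the omissions. The log2 ratio of Bub1b to Bub3 in Ep1 against Ctrl was 0.011, and over the omissions went from -0.041 without Ep1 replicate 2 to 0.056 without Ep1 replicate 1, with -0.0065 without Ctrl replicate 2. The cause of these changes was not tested. With 3 libraries a group, the permutation test of the ratios cannot give a p below 0.1. Pttg1, Ttk and Mad1l1 rested on the fewest fragments (274 to 747).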
